A study of Mus musculus with 24 samples.

Results

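CFP1 is the product of Cxxc1. CUT&Tag cuts and tags chromatin where an antibody has bound. With an antibody to CFP1, 7889 genomic regions held a CFP1 peak in at least 2 of 6 control libraries of mouse intestinal group 3 innate lymphoid cells. Of these, 532 overlapped no peak of trimethylated lysine 4 of histone H3 (H3K4me3) in any of 12 libraries of that mark, and they are described here. They were found by merging the peaks of the 6 control CFP1 lists on the autosomes and X into 11791 regions, and by keeping those with peaks in 2 or more lists and no H3K4me3 overlap of 1 b. The other 7357 regions with peaks in 2 or more control lists overlapped H3K4me3. The deposited peak calls in control libraries and the H3K4me3 calls therefore chose the 532 regions, and values of those calls are given as description only.

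Group 3 innate lymphoid cells (ILC3s) were sorted from the small intestine into CCR6+, NKp46+ and DN subsets. The KO group carried floxed Cxxc1 alleles and a Cre, which acts on those alleles in the cells where it is or was expressed, so cells without Cre activity keep them intact. The WT group was Cxxc1flox/flox, which carried the same floxed alleles without the Cre. The age is given as 6 to 8 weeks, but a protocol mentions both young and aged mice and another describes cell culture, so age and handling are not settled. Each of the 12 groups of genotype, subset and antibody had 2 libraries, numbered replicate 1 and replicate 2. The animals behind each library are not stated, so the spread between libraries may be technical.

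CFP1 has a CXXC zinc finger that binds DNA with unmethylated CpG dinucleotides. It is a subunit of the SET1 complexes, whose enzymes Setd1a and Setd1b methylate lysine 4 of histone H3. CpG-rich starts of active genes carry both the complex and H3K4me3 in many mammalian cells. CFP1 signal away from that mark is therefore set apart from the best known setting of the protein.

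Across the series, CFP1 lists held 714 to 8881 peaks in KO libraries and 4574 to 7983 peaks in WT libraries, and H3K4me3 lists held 11794 to 18127 peaks in KO and 12838 to 15397 peaks in WT libraries. The lists hold no read counts, so depth is unknown, and a missing peak means only that none was called. The longest CFP1 list of all 12 was KO DN replicate 2, with 8881 peaks, and KO NKp46+ replicate 2 had 4891, against 714 to 1312 in the other 4 KO lists. Loss of Cxxc1 RNA or protein was not measured in the files used here, so those 2 libraries cannot be checked against their label, and the main results that rest on them are given without them too. At ILC3 marker genes, H3K4me3 peaks lay at the ends of Id2 and Kit in 6 of 6 KO and 6 of 6 WT libraries, and at Il7r in 4 of 6 KO and 6 of 6 WT libraries. Il22 had none in either genotype. Of the subset markers, Ncr1 (NKp46) had a peak in 4 of 4 NKp46+ libraries and in 1 each of CCR6+ and DN, and Ccr6 in 2 of 4 CCR6+ libraries and in 1 each of the other subsets. Tbx21, the other NKp46+ marker looked up, had a peak in 4 of 4 libraries of every subset. Of markers of other cells, Ms4a1, Csf1r, Vil1 and Krt20 had none, the B cell gene Cd79a and the myeloid genes Lyz2 and Itgam each had a peak in 1 KO and 0 WT libraries, and the endothelial gene Pecam1 in 1 KO and 4 WT libraries. The T cell genes Cd3d, Cd3e and Cd3g each had one in 4 or 5 KO and 5 or 6 WT libraries. Epcam, an epithelial adhesion gene, had one in 6 KO and 6 WT libraries. Col1a1, of stromal cells, had one in 6 KO and 3 WT libraries. The part of these markers in the CFP1 results was not tested.

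Only 2 of the 532 regions overlapped a RefSeq promoter window, which spans 250 bases before to 50 bases after an annotated start (GRCm38.p6). Both windows and, for contrast, the window of a gene start inside H3K4me3 with a CFP1 peak in every library are printed 5′ to 3′ on the minus strand, with each CG dinucleotide in capitals. The Pik3r1 window, at chr13:101692581-101692880, belongs to an internal start of the gene for the p85 regulatory subunit of phosphoinositide 3-kinase. The region at chr13:101691807-101693141 covered all 300 bases of it. The Gm38456 window, of a predicted gene, lies at chr16:24296184-24296483, and 297 bases of it fell in the region at chr16:24296187-24297270. The H2az2 window, of a gene for a histone H2A.Z variant, lies at chr11:6444394-6444693, within the H3K4me3-overlapping CFP1 region at chr11:6443902-6444738.
Pik3r1: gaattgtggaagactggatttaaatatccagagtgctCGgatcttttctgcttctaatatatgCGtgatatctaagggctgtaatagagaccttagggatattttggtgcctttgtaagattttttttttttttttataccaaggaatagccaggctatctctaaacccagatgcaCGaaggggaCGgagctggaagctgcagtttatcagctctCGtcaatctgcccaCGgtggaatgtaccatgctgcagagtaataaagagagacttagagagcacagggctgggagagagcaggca
Gm38456: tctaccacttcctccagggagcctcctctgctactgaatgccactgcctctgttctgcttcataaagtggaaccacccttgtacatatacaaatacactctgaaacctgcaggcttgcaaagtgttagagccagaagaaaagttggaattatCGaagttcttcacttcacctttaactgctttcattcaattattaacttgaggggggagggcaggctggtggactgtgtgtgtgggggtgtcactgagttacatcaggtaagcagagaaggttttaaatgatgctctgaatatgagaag
H2az2: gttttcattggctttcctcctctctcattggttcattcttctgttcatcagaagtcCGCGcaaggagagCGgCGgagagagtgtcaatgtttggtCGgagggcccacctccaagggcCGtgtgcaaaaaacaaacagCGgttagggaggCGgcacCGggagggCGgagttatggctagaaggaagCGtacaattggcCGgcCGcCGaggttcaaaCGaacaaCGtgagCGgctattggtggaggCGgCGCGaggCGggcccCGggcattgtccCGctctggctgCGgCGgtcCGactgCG
The Pik3r1 window held 6 CG dinucleotides at 43.7% G plus C and the Gm38456 window 1 at 45%, against 27 at 60.7% in the H2az2 window. The Pik3r1 region had a peak in 0 KO and 2 WT libraries, the Gm38456 region in 2 KO and 3 WT libraries, and the H2az2 region in 6 KO and 6 WT libraries.

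The motif CG, which reads the same on both strands, occurred at least once in 94.7% of all 32619 RefSeq promoter windows, with a median of 7 per window. Windows within 1000 b of a region outside H3K4me3 numbered 16, had a median of 4 CG and ranged from 0 to 36. The 6205 windows overlapped by a CFP1 region inside H3K4me3 had a median of 25. At least 10 CG were found in 3 of those 16 windows (Gpatch2, Fadd and Baiap3), in 95.5% of the windows under CFP1 regions inside H3K4me3 and in 43.8% of all windows. Sequence under the other regions was not analysed here, so their CG content is not given.

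The regions mostly lay away from the ends of genes. Of 532, 13 (2.44%) lay within 1000 b of either annotated end of a protein-coding gene, 208 (39.1%) lay elsewhere within a coding gene and 311 (58.5%) lay between genes. Of the 7357 regions inside H3K4me3, 67.1% lay at a gene end, 20.3% within a gene and 12.6% between genes. The same 3 classes make up 2.98%, 37.5% and 59.5% of the sequence spanned, and the shares of the regions outside H3K4me3 were near these. The measures are not the same, since a region was put at a gene end if any base of it reached the window, while the sequence was counted by base. Since H3K4me3 marks gene starts and the mark was used to choose the regions, the contrast with regions inside the mark is a description. The annotation used gives no exons, so exon and intron were not told apart.

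**Figure D1:**
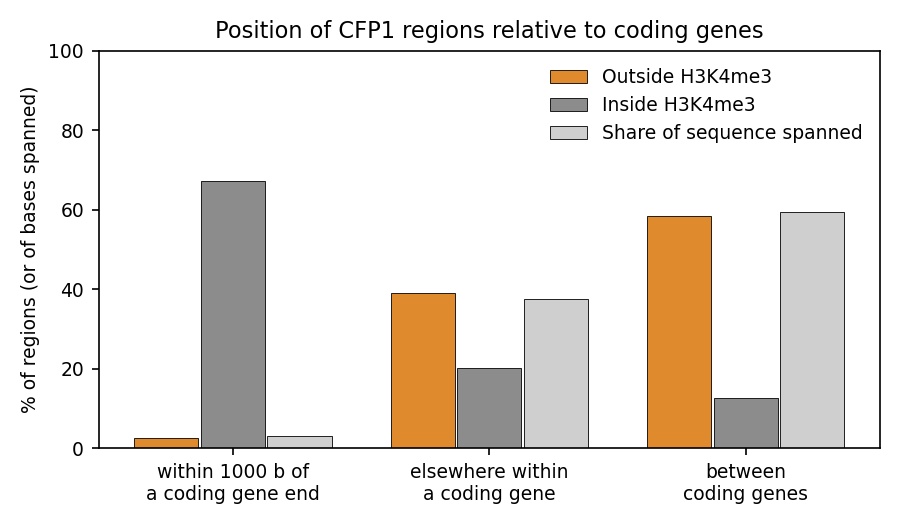
Percent of CFP1 regions (y axis) at a coding gene end, elsewhere within a coding gene and between coding genes (x axis), for 532 regions outside H3K4me3, 7357 regions inside it, and the share of all bases spanned by each class. The bars of the regions outside H3K4me3 (2.44%, 39.1% and 58.5%) stand close to those of the sequence (2.98%, 37.5% and 59.5%).

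The median distance to the nearest coding gene end was 32946 b for regions outside H3K4me3 and 0 b for regions inside it. More than 10000 b separated 390 of the 532 (73.3%) from any coding gene end, against 18.8% of the regions inside H3K4me3. Non-coding genes or pseudogenes were overlapped by 64 (12.03%) of the regions outside the mark and by 16.8% of those inside. None of 1005 annotated miRNA hairpins was overlapped by a region outside H3K4me3, and 42 were by regions inside it.

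The nearest H3K4me3 peak of any library was a median of 25291.5 b away, with a range of 55 to 3022022 b. Within 1000 b of such a peak lay 24 regions, within 10000 b lay 184 (34.6%), and beyond 100000 b lay 134 (25.2%). The 4 nearest lay within Vgll4 (55 b), which encodes a TEAD cofactor, within Cytip (82 b), which encodes a cytohesin-interacting protein of lymphocytes, 582769 b from Ncam2 (112 b) and at a gene end of Tbx2 (325 b). Of the farthest, regions with Slitrk1, 4931408C20Rik and Cntnap5a as the gene with the nearest end lay 434097 to 1619309 b from that end. Slitrk1 encodes an adhesion protein of neurons, and the region near it was the one 3022022 b from H3K4me3.

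All 13 regions at a gene end had WT peaks in replicate 2 libraries only. The genes with the nearest end were Skida1, Gm46752, Gpr61, Gimap9, P2ry6, Tspan32, Dpep2, Tbx2, Gm11541, Jpt1, C1qtnf1, Psmb8 and H2-Eb1. Strand was available for 7 of them, with the gene end nearer for 5 and the start nearer for Gm11541 and H2-Eb1. H2-Eb1 encodes a class II antigen-presenting chain and Psmb8 an immunoproteasome subunit. The H2-Eb1 region had peaks in 2 KO and 3 WT libraries and lay 645 b from H3K4me3, and the Psmb8 region had peaks in 3 KO and 2 WT libraries and lay 809 b from it.

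The 532 regions overlapped 204 coding genes, 9 of which held 2 regions each (4930563M21Rik, Arhgap24, Cadps2, Inpp4b, Nsmce2, Ppm1h, Srgap2, Tg and Thada). By chromosome, the share of CFP1 regions that lay outside H3K4me3 ran from 2.82% (8 regions) on chromosome 19 to 13.1% (21 regions) on the X chromosome, with 10.6% (42 regions) on chromosome 6. Per 10 Mb of chromosome, the regions numbered 1.23 on X and 3.13 on chromosome 9, the lowest and the highest values.

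WT peaks in replicate 2 libraries alone were found at 450 (84.6%), in replicate 1 libraries alone at 2 (0.376%) and in both numbers at 80 (15.0%). Over all 7889 regions 27% had WT peaks in replicate 2 alone, and of those inside H3K4me3 22.8% did, with 70.4% in both numbers. Both WT replicates of at least 1 subset held a peak at 67 regions (12.6%) outside H3K4me3, against 65.4% inside it. By subset, both WT libraries held a peak at 21 regions for CCR6+, 21 for NKp46+ and 38 for DN.

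**Figure D2:**
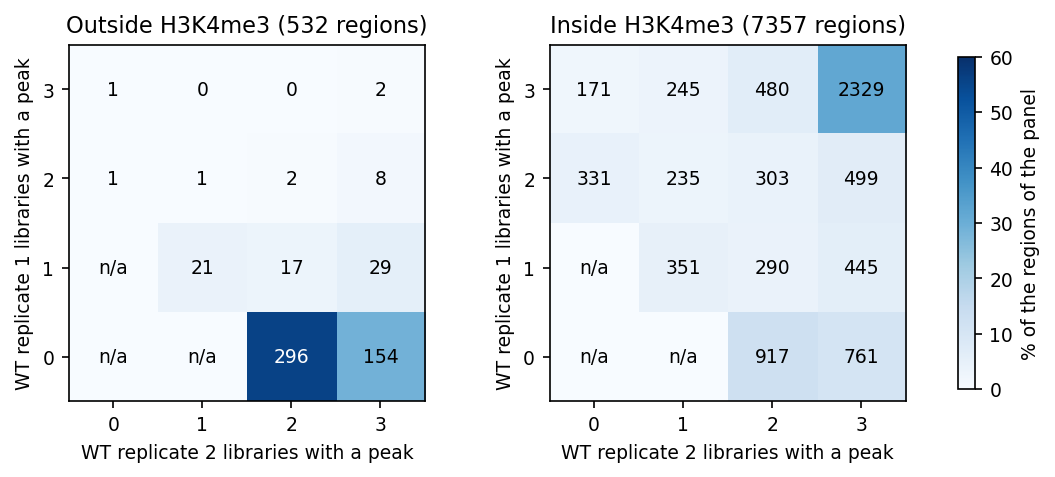
Number of CFP1 regions by how many of the 3 WT replicate 2 libraries (x axis) and of the 3 WT replicate 1 libraries (y axis) held a peak, for 532 regions outside and 7357 regions inside H3K4me3; the colour gives percent of the panel and n/a marks combinations under 2 libraries. Outside H3K4me3, 450 regions sit in the bottom row with no replicate 1 library, whereas inside it 2329 have all 6.

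Among the 450 regions seen in WT replicate 2 alone, 154 had a peak in all 3 subsets. The pair of CCR6+ and DN held 185 more, the pair of NKp46+ and DN 62 and the pair of CCR6+ and NKp46+ 49. The 80 regions with WT peaks in both numbers differed in position from these. None of the 80 lay at a gene end, 20 lay within a gene and 60 (75%) between genes, and their median distance to H3K4me3 was 86215.5 b. For the 450, 13, 188 and 249 regions fell in those classes and the median distance was 19977.5 b. A KO peak was present at 81.3% of the 80 and at 71.1% of the 450, or at 38.8% and 16.2% without KO DN and KO NKp46+ of replicate 2. The 80 and the 450 were not matched for the number of WT lists, and the 450 were in 2 or 3 lists only. Outside the mark, KO presence rose with that number, from 61.0% of regions in 2 lists to 88.4% in 3.

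Requiring more WT libraries removed regions outside H3K4me3 faster than regions inside it. In exactly 2 WT lists, at the threshold, 318 of 1917 regions (16.6%) lay outside H3K4me3, and in 3 lists 173 of 1630 (10.6%) did. The share was 3.03% (31 regions) in 4 lists, 0.811% (8 regions) in 5 and 0.0858% (2 regions) in all 6. Just below the threshold, 1492 of 3902 regions in a single WT list (38.2%) lay outside H3K4me3, of which 22.5% had a KO peak, against 61.0% of the 318 in exactly 2 WT lists. Those single-list regions numbered 36, 53 and 70 in WT CCR6+, NKp46+ and DN of replicate 1, and 657, 200 and 476 in the same subsets of replicate 2.

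To see whether the number of the replicate also marked peaks not selected for WT recurrence, all CFP1 peaks of each list were counted by H3K4me3 overlap. In KO libraries of replicate 1, 14 of 1312 CCR6+ peaks (1.07%), 22 of 714 NKp46+ peaks (3.08%) and 14 of 1131 DN peaks (1.24%) lay outside H3K4me3. In WT libraries of replicate 1 the counts were 63 of 5226 (1.21%), 78 of 4749 (1.64%) and 119 of 4574 (2.60%) in the same order. In KO libraries of replicate 2, 170 of 1250 CCR6+ peaks (13.6%), 638 of 4891 NKp46+ peaks (13.0%) and 1354 of 8881 DN peaks (15.2%) lay outside. The WT libraries of replicate 2 had 1109 of 7983 (13.9%), 534 of 5526 (9.66%) and 944 of 7703 (12.3%). The 6 libraries of replicate 1 (1.07% to 3.08%) and the 6 of replicate 2 (9.66% to 15.2%) did not overlap, in either genotype. KO CCR6+ replicate 2 had a list as short as those of KO replicate 1 and a share in the replicate 2 range. With peaks of at least 5-fold enrichment, the authors' value within each list, shares stayed apart, at 0.149% to 2.46% in replicate 1 and 4.54% to 8.54% in replicate 2. The labels say nothing of what the number stands for, and its part in these results cannot be told apart from anything else that differed between the preparations.

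**Figure D3:**
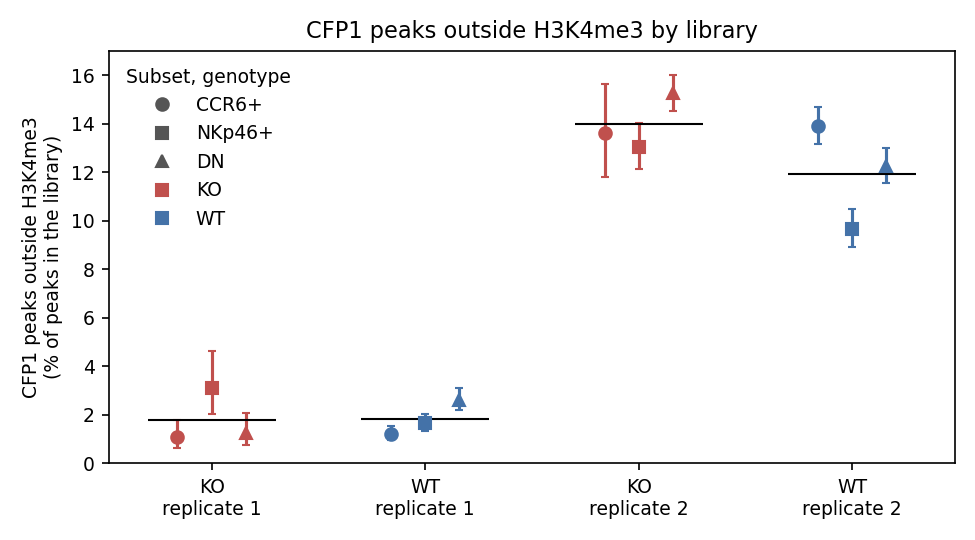
Percent of the CFP1 peaks of each library that overlapped no H3K4me3 peak (y axis), by genotype and replicate number (x axis); points are single libraries with 95% Wilson intervals, which cover counting error only, and lines are means of 3 libraries. All 6 libraries of replicate 1 lie at or below 3.08% and all 6 of replicate 2 at or above 9.66%, in KO and in WT alike.

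Between genotypes these shares overlapped. The share of peaks outside H3K4me3 was 7.88% ± 6.74 in KO and 6.88% ± 5.72 in WT libraries (SD, n = 6 each), a difference of 1.00 percentage points (exact two-sided permutation of genotype within subset, p = 0.731). These SDs take in the gap between replicate numbers, and this permutation ignores the pairing by number. With KO and WT libraries paired by subset and number, an exact two-sided sign flip gave p = 0.344. Within replicate 1 the shares were 1.80% ± 1.12 in KO and 1.82% ± 0.714 in WT libraries (SD, n = 3 each), and within replicate 2 they were 14.0% ± 1.14 and 11.9% ± 2.13. Without KO DN and KO NKp46+ of replicate 2 the difference was -2.99 points, in the other direction, with p = 0.389 in the exact permutation within subset. The number of such peaks averaged 369 ± 539 in KO and 474.5 ± 465 in WT libraries (SD, n = 6 each), a log2 ratio of -1.50 averaged over subsets (exact permutation p = 0.37, where the smallest p allowed is 0.00926). The paired exact sign flip gave p = 0.125 for it. That log2 ratio was -2.36 within replicate 1, -0.64 within replicate 2 and -3.41 without the KO DN and KO NKp46+ libraries of replicate 2.

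The KO CFP1 libraries were not used to choose the 532 regions, so presence there was compared between the regions outside and inside H3K4me3. A KO peak was found at 386 of 532 regions (72.6%), beside a background of 80.2% over all 7889 regions and 80.8% of those inside H3K4me3. Of the 532, 59.8% were in exactly 2 WT lists, against 21.7% of those inside, and the comparison was not matched for this. Outside the mark, a KO peak was found at 61.0% of regions in 2 WT lists, 88.4% in 3 and 93.5% in 4. No KO library held a peak at 146 regions (27.4%), beside 19.8% of all. Of the 386, 158 had a peak in 1 KO library, 160 in 2, 62 in 3, 5 in 4 and 1 in 5. Libraries of KO replicate 2 alone gave 370 of them, and a KO replicate 1 library held a peak at 16 regions (3.01%), against 26.3% of the regions inside the mark. Without KO DN and KO NKp46+ of replicate 2, a KO peak remained at 104 regions (19.5%), against 32.8% inside H3K4me3.

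Among KO libraries, CCR6+ replicate 1 had a peak at 8 of the 532 regions (1.504%), NKp46+ replicate 1 at 9 (1.69%) and DN replicate 1 at 1 (0.188%). In the same libraries 17.4%, 9.28% and 14.8% of the regions inside H3K4me3 had a peak. For replicate 2, the KO CCR6+, NKp46+ and DN libraries had a peak at 94 (17.7%), 245 (46.1%) and 332 (62.4%) regions outside H3K4me3, against 14.5%, 51.4% and 76.6% inside. Presence was lower outside the mark in 5 of 6 KO libraries, with KO CCR6+ replicate 2 the exception. The mean difference of -9.09 points missed the threshold (exact two-sided sign flip over 6 libraries, p = 0.0625, where the smallest p allowed is 0.0312). It was -12.7 points over the 3 libraries of replicate 1 and -5.47 over those of replicate 2. Regions outside and inside the mark were not matched for WT recurrence in these differences.

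**Figure D4:**
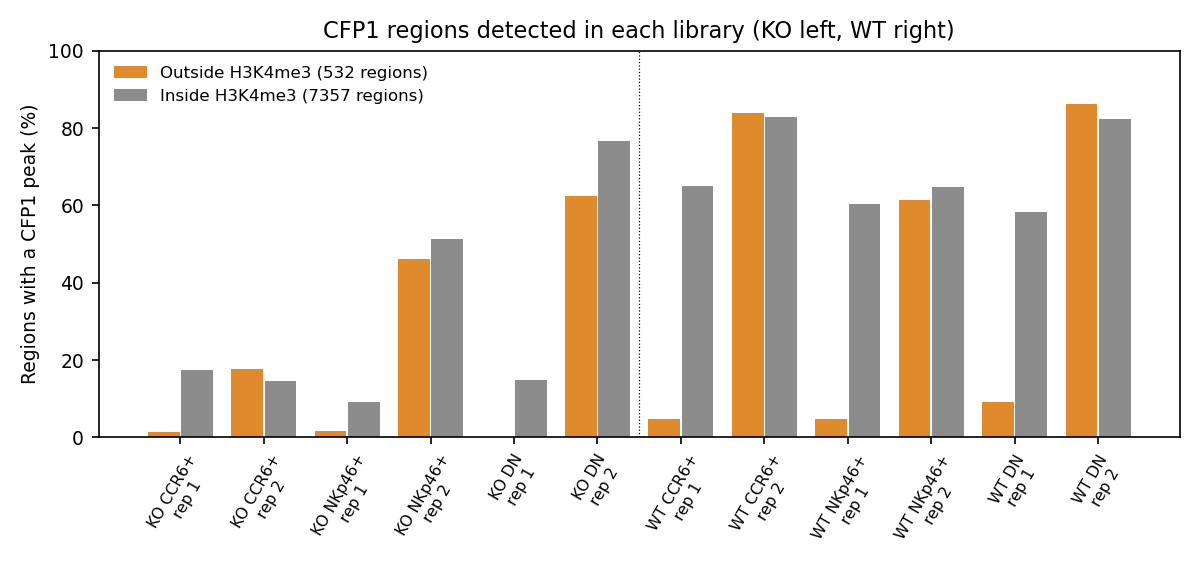
Percent of CFP1 regions with a peak (y axis) in each of 12 CFP1 libraries (x axis, KO left, WT right), for 532 regions outside and 7357 inside H3K4me3; WT libraries chose the regions. In replicate 1 libraries the bars outside H3K4me3 stay at or below 9.21%, and in WT replicate 2 libraries they stand at 61.3% to 86.3%.

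In WT libraries, which chose the regions, 26 (4.89%), 25 (4.70%) and 49 (9.21%) regions had a peak in CCR6+, NKp46+ and DN of replicate 1, and 446 (83.8%), 326 (61.3%) and 459 (86.3%) in replicate 2. Where a WT library held a peak, the KO library of the same subset and number held one at 86 of 446 (19.3%) for CCR6+ replicate 2, 188 of 326 (57.7%) for NKp46+ replicate 2 and 298 of 459 (64.9%) for DN replicate 2. Inside H3K4me3 these shares were 17.4%, 68.5% and 85.0%. For replicate 1 the KO peak was present at 1 of 26, 5 of 25 and 1 of 49 regions (3.85%, 20% and 2.04%), against 25.8%, 14.7% and 24.6% inside H3K4me3.

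When regions were chosen by recurrence within a single replicate number, a choice made after seeing the data, at least 2 of 3 WT libraries of replicate 2 gave 508 regions outside H3K4me3 and 6023 inside, and those of replicate 1 gave 15 outside and 4597 inside. The 508 had peaks in WT replicate 1 libraries at 3.54% (CCR6+), 3.54% (NKp46+) and 7.09% (DN), against 62.4%, 59.1% and 57.2% of the 6023. The 15 had peaks in KO replicate 2 libraries at 7, 9 and 9 regions and in WT replicate 2 libraries at 11, 12 and 12 regions, in the same order of subsets. These are 46.7%, 60% and 60% in KO and 73.3%, 80% and 80% in WT libraries, against 17.7%, 54.8% and 76.9% in KO and 82.2%, 67.6% and 79.2% in WT libraries for the 4597 regions inside H3K4me3. The share of the 15 was thus lower than that inside H3K4me3 in KO DN and WT CCR6+ and higher in the other 4 libraries, and these differences were not tested. Applying the whole rule to the 6 KO lists in place of the WT lists gave 351 of 4729 regions (7.42%) outside H3K4me3, of which 337 (96.0%) had peaks in KO replicate 2 alone. Overlap with the 532 WT-chosen regions was 227, which is 64.7% of the 351 and 42.7% of the 532. From the 4 KO lists other than DN and NKp46+ of replicate 2, the rule gave 7 of 1035 regions (0.676%) outside H3K4me3.

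In all, 8688 merged WT regions with peaks in 2 to 10 of 12 libraries were tested for presence in KO against WT libraries. The test was a two-sided Fisher's exact test with Benjamini-Hochberg adjustment over the 8688. All of them were merged from WT lists, so regions with KO peaks alone could not enter. Counts of fewer against more KO libraries are tilted towards fewer by that choice. At an adjusted p of 0.05, 0 of the 532 regions were called, beside a background of 0% of all. At an unadjusted p under 0.05, 425 regions (4.89% of all) had fewer KO libraries and 0 had more (0%), and none of the 425 lay outside H3K4me3. A region in 4 WT and 0 KO libraries gives an exact p of 0.0606, so the 522 regions in 2 to 4 WT libraries could not pass even unadjusted in the direction of fewer KO libraries, and the absence of calls among them says nothing of KO presence. Under the replicate block the unadjusted count of 425 was 51. With 6 libraries each, 377 regions present in all WT and no KO libraries would be needed for an adjusted call, and 51 (0.646% of the 7889) were observed. KO libraries with a peak were fewer than WT libraries at 404 of the 532, equal at 109 and more at 19, beside 0.684% of the 7889 with more. Of all 8688 regions tested, KO libraries were fewer at 6789, equal at 1572 and more at 327. WT presence was part of the rule for the 532 and of the merging for all 8688, so these counts are descriptive. Without KO DN and KO NKp46+ of replicate 2, 737 of 7494 regions (9.83%) were called with fewer KO libraries by the same adjusted Fisher's exact test. These 7494 were likewise merged from WT lists. Of the 532, that Fisher's exact test called 0 (smallest adjusted p = 0.174), with 4 at an unadjusted p under 0.05. Those 4 were in 5 WT and none of the 4 remaining KO libraries, the most extreme result open to a region in 5 WT libraries. The 530 regions in 2 to 5 WT libraries could therefore not be called with fewer KO libraries. The absence of calls among them again says nothing of KO presence.

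The regions were narrower than those inside H3K4me3, with a median width of 677.5 b (interquartile range 580 to 858, full range 364 to 2036) against 829 b (647 to 1050, full range 331 to 2929). At matched recurrence the medians were closer for 2 to 4 WT libraries, at 648 b outside and 628 b inside for 2, 737 b and 769 b for 3, and 714 b and 809 b for 4. They were further apart for 5 (638.5 b and 866 b) and 6 (688.5 b and 1004 b), with 8 and 2 regions outside. Single CFP1 peaks in KO libraries, which were not used by the rule, were narrower at the regions outside H3K4me3 in 6 of 6 libraries. This comparison was not matched for WT recurrence. In KO replicate 1 the medians were 413.5 b outside against 463 b inside (CCR6+), 451 against 452 b (NKp46+) and 378 against 417 b (DN). The values outside came from 8, 9 and 1 peaks in that order. In KO replicate 2 they were 507.5 against 541.5 b, 559.5 against 617 b and 647 against 736 b. The mean log2 ratio was -0.12 (exact two-sided sign flip, p = 0.0312, the smallest that 6 libraries allow). Without KO DN and KO NKp46+ of replicate 2 it was -0.10, narrower in 4 of 4 libraries, where the exact test gave p = 0.125, the smallest possible there.

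By fold enrichment ranked within each list, where 100 is the strongest peak, peaks at these regions stood at a median rank of 34.5 to 63.5 in KO libraries, against 50.8 to 63.8 for peaks inside H3K4me3. In WT libraries the medians were 10.5 to 43.6 outside and 52.6 to 59.0 inside. KO DN replicate 1, with 1 peak, was the only library of 12 in which the rank outside was higher. Of the 532 regions, fewer were found when WT peaks of at least 5-fold enrichment alone were merged, at 163 outside and 4998 inside H3K4me3.

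A few regions recurred across nearly all libraries. The region at chr13:36808068-36808879 lay 58298 b from an end of F13a1, which encodes a subunit of coagulation factor XIII. Its peaks in CCR6+, NKp46+ and DN of KO replicate 2 had fold enrichments of 9.56, 10.4 and 13.8, and KO replicate 1 had a peak in NKp46+ alone, at 5.33-fold. In WT its peaks had fold enrichments of 7.09, 3.96 and 4.0 in replicate 1 and 13.7, 7.84 and 12.3 in replicate 2, in the same order of subsets. It was thus listed in 4 of 6 KO and 6 of 6 WT libraries. Fold enrichments are the authors' values within each list, given to describe its peaks and not as levels to compare between libraries.

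The region at chr11:56182824-56183388, 141836 b from an end of the neuromedin U receptor gene Nmur2, was listed in the same 4 KO libraries and all 6 WT libraries. Its fold enrichments were 4.58 in KO NKp46+ replicate 1, and 7.01, 7.02 and 6.64 in CCR6+, NKp46+ and DN of KO replicate 2, against 3.96 to 8.49 in WT libraries. Within Rasef, which encodes a Rab family GTPase, the region at chr4:73755140-73755787 had a peak in 5 KO and 5 WT libraries, the most KO libraries of any. The fold ranged from 5.35 to 8.63 in KO and from 5.28 to 8.90 in WT libraries, and no peak was listed in KO DN replicate 1 and WT CCR6+ replicate 1. Within Eda, the ectodysplasin gene, the region at chrX:100006905-100007533 had a peak in 4 KO libraries, both of them for NKp46+ and for DN, and in 5 WT libraries.

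Another region in 5 WT libraries lay at chr5:118458910-118459888, 100441 b from the Mediator kinase module gene Med13l. It had 10.1, 10.8 and 11.4-fold peaks in the 3 KO libraries of replicate 2 and none in KO replicate 1, against 5.39 to 12.6-fold in WT libraries. This region was also near the mark, at 4757 b from an H3K4me3 peak, whereas the Rasef region lay 495600 b and the Nmur2 region 711923 b from one. The remaining 5 regions in 5 WT libraries had Scgb2b13-ps, Tmem106b, Olfr108, Ugt2b37 and Otol1 as the gene with the nearest end, with peaks in 1 or 2 KO libraries. The 12 regions in the most WT libraries also took in one within Thada (3 KO libraries) and one nearest to Cypt1 (2 KO libraries), with 4 WT libraries each.

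**Figure D5:**
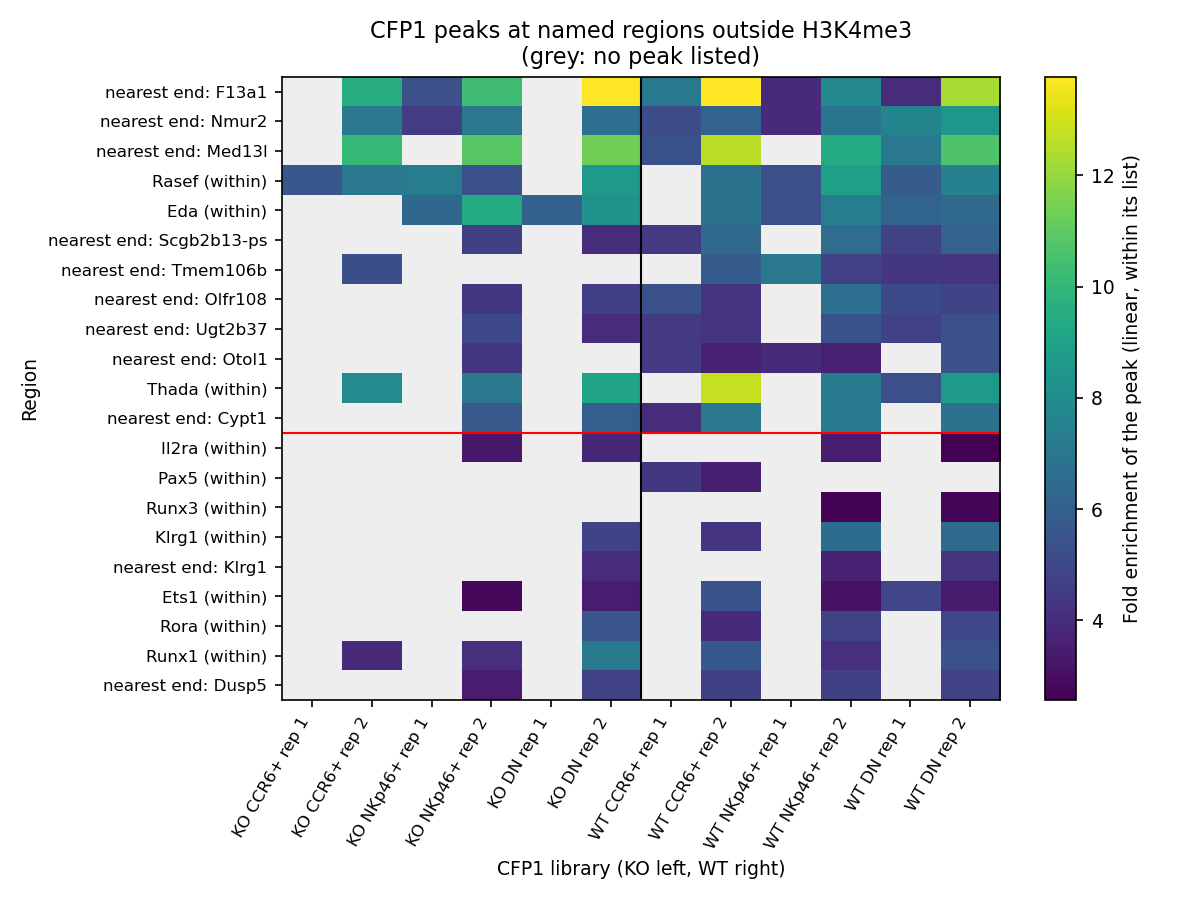
Fold enrichment of the CFP1 peak (colour, linear, the authors' value within each list) at 12 regions outside H3K4me3 in the most WT libraries and, under the red line, at 9 regions at genes of the fixed lists (y axis), in 12 CFP1 libraries (x axis, KO left, WT right). Grey means that no peak was listed. The upper 12 regions have peaks in both replicate numbers by their choice, since each is in at least 4 WT libraries and a number has 3. The lower 9 have peaks mostly in replicate 2 columns alone.

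The opposite pattern, recurrence in WT and no KO peak, was found at Wdr37 and Zfp219 with 4 WT libraries each. The Wdr37 region at chr13:8808844-8809625 had WT folds of 3.96 to 5.36, and the region at chr14:52022787-52023482, 1646 b from an end of the zinc finger gene Zfp219, of 3.48 to 4.06. With 3 WT libraries and no KO peak, the rule named regions within or nearest to Kbtbd12, Cdkal1, Spink4 and Niban1. A region with KO peaks in 4 libraries but WT peaks in 2 lay at chr5:102195887-102196384, nearest to Arhgap24.

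Only 1 region had peaks in all 3 WT libraries of replicate 1 and none of replicate 2. It lay at chr6:89204662-89205482, 110830 b from an end of the semaphorin receptor gene Plxna1, with WT folds of 4.01, 3.96 and 4.59 and no KO peak. Of the 154 regions with all 3 WT libraries of replicate 2 and none of replicate 1, the highest ranked was the Gm38456 region shown above by its promoter window, 96079 b from an end of Lpp. Its folds were 5.01 in KO NKp46+ and 9.76 in KO DN of replicate 2, against 10.5, 9.15 and 10.4 in WT CCR6+, NKp46+ and DN. Regions nearest to Kbtbd12, Wipi1 and Sptssa and within Srgap2 and Kif6 followed, with peaks in 0 to 3 KO libraries, all of replicate 2. The 4 widest regions lay nearest to Slc15a1 (2036 b wide), within Pax5 (1943 b), nearest to Slc25a13 (1695 b) and nearest to Olfr724 (1677 b).

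Genes of 11 lists were looked up for a region within 10000 b, beside 333 of 21631 coding genes (1.54%). Of 20 ILC3 transcription factor genes, 4 had one (Rora, Runx1, Runx3 and Ets1), and 17 had a CFP1 region inside H3K4me3. The median span of that list was 42163.5 b, and genes near a region outside H3K4me3 had a median span of 59685 b, against 17329 b for all coding genes. Of the 5720 coding genes at least as long as 42163.5 b, 3.44% had a region within 10000 b. One of 20 ILC3 effector and receptor genes (Il2ra), 1 of 20 AP-1 and MAPK genes (Dusp5), 1 of 10 ILC2 genes (Klrg1) and 1 of 8 B cell genes (Pax5) had a region. None was found at 20 genes of SET1/MLL complexes and H3K4 demethylases, 15 KLF and quiescence genes, 10 NK cell and ILC1 genes, 12 T cell genes, 10 myeloid genes or 10 epithelial genes.

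Within Runx1, a transcription factor of lymphoid development, the region at chr16:92786157-92787244 had fold enrichments of 3.93, 4.11 and 7.09 in KO CCR6+, NKp46+ and DN of replicate 2, against 5.67, 4.10 and 5.35 in the same WT libraries. No replicate 1 library of either genotype held a peak there. Within Ets1, a transcription factor of lymphocytes, the region at chr9:32705048-32706358 had folds of 2.79 in KO NKp46+ and 3.40 in KO DN of replicate 2. The WT libraries had 5.40, 3.06 and 3.38 in CCR6+, NKp46+ and DN of replicate 2 and 4.89 in DN of replicate 1. Ets1 was the only listed ILC3 factor with a replicate 1 peak.

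Within Rora, a nuclear receptor gene of innate lymphoid development, the region at chr9:69099400-69100210 had a 5.51-fold peak in KO DN replicate 2, against 3.93, 4.77 and 4.95-fold in the 3 WT libraries of replicate 2. Within Runx3, which encodes a factor of the same family as Runx1, the region at chr4:135166825-135167503 lay 1144 b from H3K4me3 and had no KO peak, against 2.63-fold in NKp46+ and 2.78-fold in DN of WT replicate 2. Within Il2ra, the gene of the interleukin-2 receptor alpha chain, the region at chr2:11651467-11652113 lay 1032 b from H3K4me3, with 3.34 and 3.84-fold in KO NKp46+ and DN of replicate 2, against 3.42 and 2.57-fold in the same WT libraries. Fold ranks of the Il2ra peaks were also low, at 3.86 and 18.8 in KO and 5.27 and 0.175 in WT, in the same order.

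Klrg1, which encodes an inhibitory receptor of mature lymphocytes, had 2 regions. At chr6:122274028-122274719, within the gene, the KO DN replicate 2 peak had 4.85-fold enrichment, against 4.29, 6.53 and 6.46-fold in CCR6+, NKp46+ and DN of WT replicate 2. At chr6:122292019-122292432, 9185 b from a gene end, KO DN replicate 2 had 3.99-fold, against 3.63 and 4.31-fold in NKp46+ and DN of WT replicate 2. Near Dusp5, a phosphatase of the MAPK pathway, the region at chr19:53544552-53545396 had 3.47 and 4.78-fold in KO NKp46+ and DN of replicate 2, against 4.69 to 4.73-fold in the 3 WT libraries of replicate 2. Within Pax5, the transcription factor of B cells, the region at chr4:44670784-44672726 had no KO peak and WT peaks in CCR6+ alone, at 4.37-fold in replicate 1 and 3.56-fold in replicate 2, with H3K4me3 at the ends of the B cell genes Ms4a1 in 0 of 12 libraries and Cd79a in 1 KO and 0 WT libraries.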

How the data were processed

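CUT&Tag libraries with antibodies to CFP1 and H3K4me3 (24 libraries, 12 groups of 2) were grouped by genotype, subset, antibody and replicate number from the labels. The submitters' processing notes name the build mm10 and MACS2 2.2.7.1, beside fastp 0.19.7, Bowtie2 2.3.5.1, ChIPseeker 1.28.3 and Picard. For roles, settings and control libraries, nothing is given in the sources used here. One list of peaks per library was deposited by the authors, with position, fold enrichment (a ratio) and −log10 of the p-value and q-value for each peak. The lowest −log10 q in a deposited list was 1.30 to 1.42. The deposited score was not used. Depth is unknown, so a missing peak can reflect depth, and intervals cover counting error only.

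Peaks on 19 autosomes and X were merged where they overlapped by 1 b or more. Coordinates are 1-based. Gene positions, promoter windows and hairpins came from RefSeq tables of GRCm38.p6, which shares the coordinates of mm10. Genotype was compared by exact permutation within subset (216 arrangements), KO libraries by exact sign flips (64 arrangements), and regions by Fisher's exact test. Same-numbered KO and WT libraries deviated together over 13942 regions (correlations 0.127, 0.219 and 0.190 for CCR6+, NKp46+ and DN), so the numbers were taken as pairing the samples. Alternatives varied the fold, list, overlap and window thresholds, left out libraries or replicate numbers, or blocked on the number; those without KO DN and KO NKp46+ of replicate 2 together, by replicate number or in the KO lists were chosen after seeing the data. Named regions were those in the most WT or KO libraries, in WT but no KO libraries, in 1 replicate number, the widest, those nearest to and farthest from H3K4me3, and those at genes of 11 lists (155 genes); ties went to the higher fold rank. Pik3r1, Gm38456, H2az2 and the genes at a gene end or with several regions were named for their position. Some items that the rule names are not reported here. The regions and lists were chosen with earlier results of these data known. SciPy 1.17.1, pandas 2.3.3, NumPy 2.4.6 and matplotlib 3.10.9 were run under Python 3.11.15.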

Additional observations from a re-analysis of the deposited data

Results flagged for a closer look

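The KO minus WT difference in the share of CFP1 peaks outside H3K4me3 was not alike in 2 subsets. In CCR6+ cells it was lower in KO than in WT libraries in both pairs, at 1.07% against 1.21% in replicate 1 and 13.6% against 13.9% in replicate 2. In NKp46+ cells the share was higher in KO in both pairs, at 3.08% against 1.64% in replicate 1 and 13.0% against 9.66% in replicate 2. The intervals there were 2.04% to 4.62% against 1.32% to 2.04%, and 12.1% to 14.0% against 8.91% to 10.5%. For CCR6+ they overlapped, at 0.637% to 1.78% against 0.943% to 1.54%, and 11.8% to 15.6% against 13.2% to 14.7%. The share in DN cells was lower in KO in replicate 1 (1.24% against 2.60%) and higher in replicate 2 (15.2% against 12.3%). The mean KO minus WT difference of CCR6+ less that of NKp46+ cells was -2.63 percentage points. Without KO NKp46+ replicate 2 the NKp46+ contrast rests on replicate 1 alone. This difference between the subsets was not tested.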

How the results depend on the processing

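The number of regions was 508 when H3K4me3 within 1000 b counted as overlap, 690 with H3K4me3 of the WT libraries alone and 508 from WT replicate 2 alone, within 1.5 times 532. It was 214 with at least 3 of 6 WT lists, 163 with WT peaks of at least 5-fold enrichment, 915 with H3K4me3 peaks of at least 5-fold, 15 from WT replicate 1 alone and 351 in KO lists, and 282 to 526 leaving out each WT library in turn (289 without WT CCR6+ replicate 2 and 282 without WT DN replicate 2). The gene end, within and between shares were 6.45%, 44.5% and 49.1% with H3K4me3 of at least 5-fold, 7.14%, 45.1% and 47.7% with all annotated genes, and 0%, 13.3% and 86.7% from WT replicate 1 alone. The gene end share was 0.940% with windows of 500 b and 6.02% with 2000 b; leaving out a WT library gave 2.41% to 3.11%, 38.4% to 39.7% and 57.8% to 58.5%. The KO minus WT share of peaks outside H3K4me3 was -0.0212 points in replicate 1 alone, -2.99 without KO DN and KO NKp46+ of replicate 2 together, and -1.33 to 3.34 leaving out each library. With H3K4me3 of the same genotype and subset it was 0.243. The log2 ratio of peak numbers was -2.60 to -0.40 leaving out each library and -0.54 with CFP1 peaks of at least 5-fold. Outside minus inside presence in KO libraries was -11.5 to -5.48 points leaving out each library (exact p = 0.0625 to 0.281), -1.17 from WT replicate 1 alone (exact p = 0.906), -13.2 from WT replicate 2 alone, -4.22 when a KO peak had to cover 50% of the region and -5.52 with at least 3 WT lists. The width ratio was -0.11 with WT peaks of at least 5-fold and -0.081 with H3K4me3 of at least 5-fold (exact p = 0.0625 for both), -0.10 from WT replicate 1 alone (exact p = 0.375) and -0.10 without both KO libraries; leaving out each library gave -0.15 to -0.11, and with 5 KO libraries the exact p cannot go under 0.0625. The adjusted Fisher's exact test called 0 regions when a peak had to cover 50% of the region, when all merged regions entered and leaving out each library in turn, with 434 to 1248 in the last case at an unadjusted p under 0.05 (0 to 3 among the 532), and 737 without both KO libraries. Blocking on the replicate number gave an exact p of 0.125 for peak numbers (log2 ratio -1.50) and of 0.344 for their share (1.00 points), and 0 called regions (51 at an unadjusted p under 0.05). The smallest p that an exact sign flip over 6 pairs allows is 0.0312. With 51 of 8688 regions under 0.05, no adjusted call was within reach, so that 0 says nothing of the block. For values that moved, the cause was not tested, apart from the fewer libraries or peaks that the alternative leaves.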
